A study of Homo sapiens with 6 samples.

Results

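The genes described here were CDKN2A, CDKN2B, CDKN2B-AS1 and MTAP on chromosome 9p21, and CDKN2C, CDKN2D, CDKN1B, CCND1, CCND3 and CDK6 elsewhere in the genome. They were taken by gene symbol as 10 rows of a table of 46427 genes. RNA-seq was performed in 3 established non-small cell lung cancer (NSCLC) cell lines, H460, H1299 and A549, each as 1 control library and 1 library after an siRNA against the long noncoding RNA MALAT1 (si-MALAT1), 6 libraries in all. The labels call the controls not treated, whereas the study's methods describe both untreated cells and cells given a control siRNA without saying which were sequenced. If the controls were untreated, siRNA transfection as such cannot be told apart from loss of MALAT1. With 1 library per condition and line, a change within a line has no replicate check, and each line stands for 1 tumour.

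The G1 phase of the cell cycle is governed by D-type cyclins, which bind the kinases CDK4 and CDK6. The active complex phosphorylates the retinoblastoma protein RB1 and releases E2F transcription factors. Inhibitors of the INK4 family, encoded by CDKN2A (p16), CDKN2B (p15), CDKN2C (p18) and CDKN2D (p19), bind CDK4 and CDK6. CDKN1B encodes p27, a CIP/KIP inhibitor best known for its action on cyclin E and CDK2. CDKN2A also encodes ARF from another first exon, CDKN2B-AS1 (ANRIL) is a long noncoding RNA of the opposite strand, and MTAP, their neighbour, salvages methylthioadenosine, a by-product of polyamine synthesis. The 9p21 region is a frequent site of loss in NSCLC.

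In the deposited annotation (GRCh38), MTAP occupied chr9:21802636-21867081 on the plus strand, CDKN2A chr9:21967752-21995324 on the minus strand, CDKN2B-AS1 chr9:21994791-22121097 on the plus strand and CDKN2B chr9:22002903-22009313 on the minus strand. CDKN2B thus lies within the span of CDKN2B-AS1, but their exons shared 0 bases. Exons of CDKN2A and CDKN2B-AS1 shared 341 bases on opposite strands, 7.37% of the CDKN2A exon bases and 8.10% of those of CDKN2B-AS1. The library kit marked strand, but whether the counting used it is not given in the sources used here, so reads in those bases cannot be assigned to 1 of the 2 genes. Reads were counted per gene, so p16 and ARF were not separated.

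The 250 bases before the RefSeq starts of the 9p21 genes (GRCh38.p14) are shown because 3 of these genes were read in only 1 of the 3 lines and their starts lie close together. Sequences run 5′ to 3′ on the gene's own strand, with each CG dinucleotide in capitals.
CDKN2A, upstream start, chr9:21995325-21995574, minus strand: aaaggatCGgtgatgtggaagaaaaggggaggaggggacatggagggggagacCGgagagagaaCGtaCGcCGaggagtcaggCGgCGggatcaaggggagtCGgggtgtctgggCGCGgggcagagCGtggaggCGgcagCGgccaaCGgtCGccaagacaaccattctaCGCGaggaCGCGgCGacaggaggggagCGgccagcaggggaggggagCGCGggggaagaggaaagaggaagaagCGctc
CDKN2A, downstream start, chr9:21974858-21975107, minus strand: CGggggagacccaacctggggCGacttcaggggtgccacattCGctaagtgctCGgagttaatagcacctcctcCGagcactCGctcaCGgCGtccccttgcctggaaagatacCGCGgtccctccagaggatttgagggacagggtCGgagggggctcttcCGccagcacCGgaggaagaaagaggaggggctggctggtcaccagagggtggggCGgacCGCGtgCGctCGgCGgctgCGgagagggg
CDKN2B-AS1, chr9:21994541-21994790, plus strand: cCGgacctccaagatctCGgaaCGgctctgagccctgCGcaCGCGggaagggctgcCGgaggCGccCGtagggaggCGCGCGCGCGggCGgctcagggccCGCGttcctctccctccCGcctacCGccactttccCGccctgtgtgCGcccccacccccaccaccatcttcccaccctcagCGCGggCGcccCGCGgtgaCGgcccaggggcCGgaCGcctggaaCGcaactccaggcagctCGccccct
CDKN2B, chr9:22009306-22009555, minus strand: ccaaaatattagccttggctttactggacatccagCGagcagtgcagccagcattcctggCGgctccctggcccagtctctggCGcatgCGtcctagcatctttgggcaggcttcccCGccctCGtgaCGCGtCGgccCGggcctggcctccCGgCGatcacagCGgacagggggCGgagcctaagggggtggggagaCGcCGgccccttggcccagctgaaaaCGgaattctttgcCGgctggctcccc
MTAP, chr9:21802386-21802635, plus strand: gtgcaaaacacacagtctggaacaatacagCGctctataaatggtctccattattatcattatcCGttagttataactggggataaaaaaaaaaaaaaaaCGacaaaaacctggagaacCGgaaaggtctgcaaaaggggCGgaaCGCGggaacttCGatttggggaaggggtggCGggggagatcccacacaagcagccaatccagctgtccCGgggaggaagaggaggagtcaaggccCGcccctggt

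CG occurred 24 times before the upstream CDKN2A start and 20 times before the downstream one, which lies 20.5 kb away. It occurred 31 times before CDKN2B-AS1, 18 times before CDKN2B and 11 times before MTAP. Among 35116 RefSeq promoter windows of this length the median was 11, and 10.9% held at least as many as CDKN2B-AS1. The starts of CDKN2B-AS1 and CDKN2A were 533 bases apart on opposite strands, so the first bases of both transcripts overlap, while the windows shown do not. The GC box letters GGGCGG, on either strand and with no overlap between matches, occurred 2 times each before CDKN2B-AS1, CDKN2B and MTAP, once before the downstream CDKN2A start and 0 times before the upstream one, against 42.6% of all windows with at least 1 match. These counts describe the letters only.

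Depth ranged from 42506818 counted reads (A549 control) to 68515992 (H460 control). MALAT1, the target of the siRNA, went from 407551 to 47935 reads between the H1299 libraries, from 93747 to 14447 between those of A549, and from 231045 to 43858 between those of H460. It was thus lower after si-MALAT1 in each line, and the labels held. Epithelial keratins KRT8 and KRT18 were high in each library, whereas the epithelial adhesion genes CDH1 and EPCAM were under 1 TPM in H460 and H1299. Another keratin, KRT19, was high only in H460, with 550 TPM in its control and 399 TPM after si-MALAT1. Its highest level was 2.23 TPM among A549 libraries, and 0.256 TPM among those of H1299. Summed leukocyte markers reached at most 1.38 TPM, with PTPRC and CD3E at 0, endothelial markers 0.0956 TPM and fibroblast markers 3.44 TPM. In bulk RNA, fewer cells with a transcript and less of it per cell cannot be told apart.

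CDKN2A, CDKN2B and CDKN2B-AS1 were read only in H1299. CDKN2A had 2938 reads in the H1299 control and 2679 after si-MALAT1, which is 47.2 and 49.3 TPM (a level corrected for transcript length and library size). It had 0 reads in both H460 libraries and 0 in both A549 libraries. CDKN2B had 3215 and 6416 reads in H1299 (14.4 and 33.0 TPM) and 0 in the 4 other libraries. CDKN2B-AS1 had 540 and 434 reads in H1299 (4.36 and 3.33 TPM) and likewise 0 in the others. A count of 0 allows up to 3 reads, which at these depths is between 0.0494 and 0.0702 CPM (reads scaled to library size), for counting error only. Against that floor CDKN2A in H1299 was at least 788-fold higher than in H460 and at least 578-fold higher than in A549. The same bounds were 871-fold and 639-fold for CDKN2B, and 128-fold and 93.7-fold for CDKN2B-AS1. The 3 genes passed the filter on low counts only through H1299, so no test of the line difference is given for them.

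**Figure D1:**
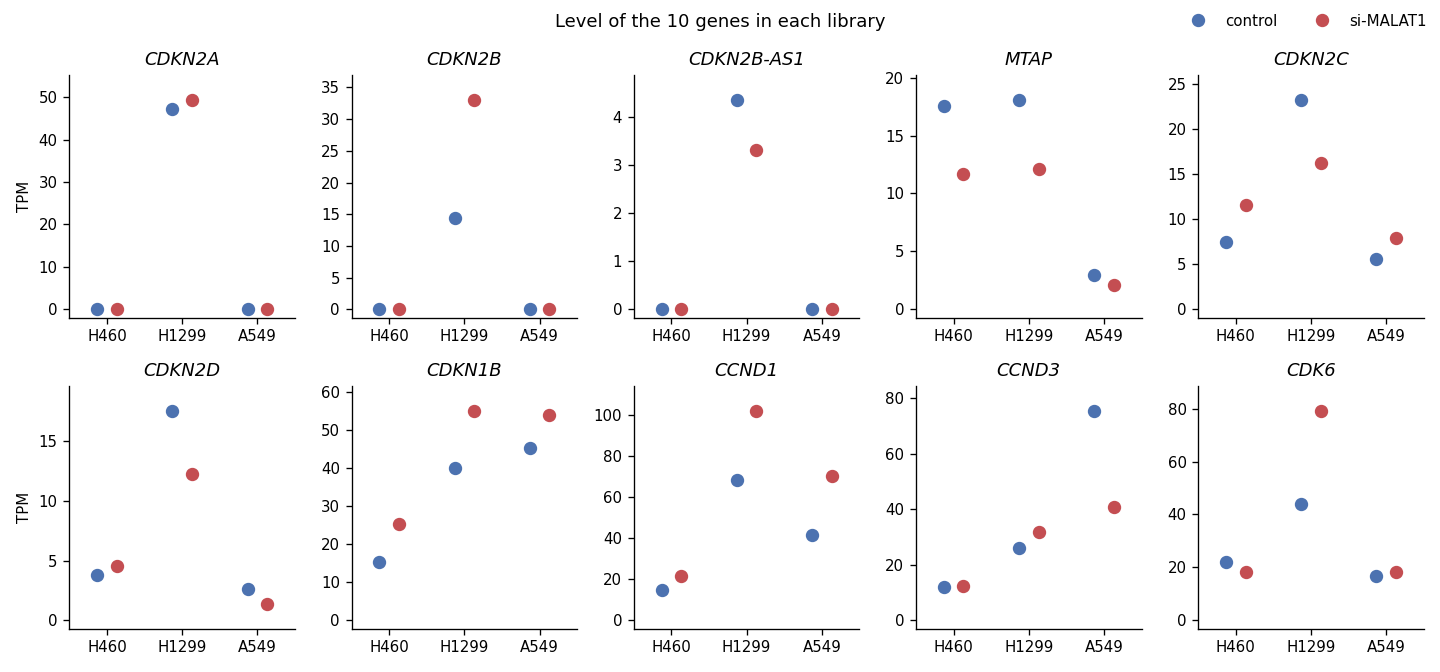
Level of each of the 10 genes in TPM (vertical axis, linear, a scale per gene) in each library, with 1 point per library, blue for control and red for si-MALAT1. CDKN2A, CDKN2B and CDKN2B-AS1 lie at 0 in H460 and A549, and MTAP in A549 (2.99 and 2.09 TPM) lies under the other lines.

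The run of genes at or under the floor was the same in H460 and in A549. Ordered along the chromosome, 6 consecutive annotated genes around CDKN2A had at most 3 reads in each library of H460, and the same 6 did in A549. Besides the 3 named above they were the pseudogenes TUBB8P1 and UBA52P6 and the transcript CDKN2A-DT, of which TUBB8P1 and CDKN2A-DT are named because they fell in the run. TUBB8P1 had 0 reads in the H1299 libraries too and CDKN2A-DT only 4 and 0, so these 2 do not separate the lines. UBA52P6 had 66 and 42 reads in H1299, 0 and 0 in H460 and 0 and 1 in A549. It lies within the span of CDKN2B-AS1 on the same strand, and whether its reads came from that transcript was not tested. The nearest genes above the floor on either side were MTAP and DMRTA1 in both lines, 580 kb apart. DMRTA1 had 37 and 33 reads in H460 (control, then si-MALAT1), 245 and 304 in A549 and 1232 and 1571 in H1299. It was 5.10 ± 0.25 higher in H1299 than in H460 on the log2 scale (SE, edgeR adjusted p = 5.29e-05) and 1.75 ± 0.21 higher than in A549 (adjusted p = 0.00133). So DMRTA1 was read in the lines that lack CDKN2A transcripts, at a lower level. Read counts hold no copy number and no methylation, and neither was analysed here.

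The wider neighbourhood was read only in part. Of 107 annotated genes within 5 Mb of the CDKN2A start, 47 had no read in any library. Another 15 had over 50 reads in each of the 6. For comparison, 31353 of 46427 genes had a read over the whole genome. Within the window, 71 of the 107 genes were at or under 3 reads in both H460 libraries, 61 in H1299 and 74 in A549. Of these, 53 were shared by the 3 lines. Genes above the floor in H1299 alone, with over 10 reads in both of its libraries, numbered 5: CDKN2A, CDKN2B, CDKN2B-AS1, UBA52P6 and LINC01239. By the same measure 2 genes were read in H460 alone (LOC105375983 and LOC101929563) and 1 in A549 alone (HACD4), HACD4 0.96 Mb from CDKN2A and the others farther away. The interferon cluster on the MTAP side of the window was mostly silent in all lines, with no read in any library for 20 of 22 interferon genes and pseudogenes of the window. Among them IFNE had 38 to 236 reads and the noncoding MIR31HG 128 to 515 in every line, and KLHL9, a ubiquitin ligase adaptor 0.66 Mb away, had 2987 to 5181.

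**Figure D2:**
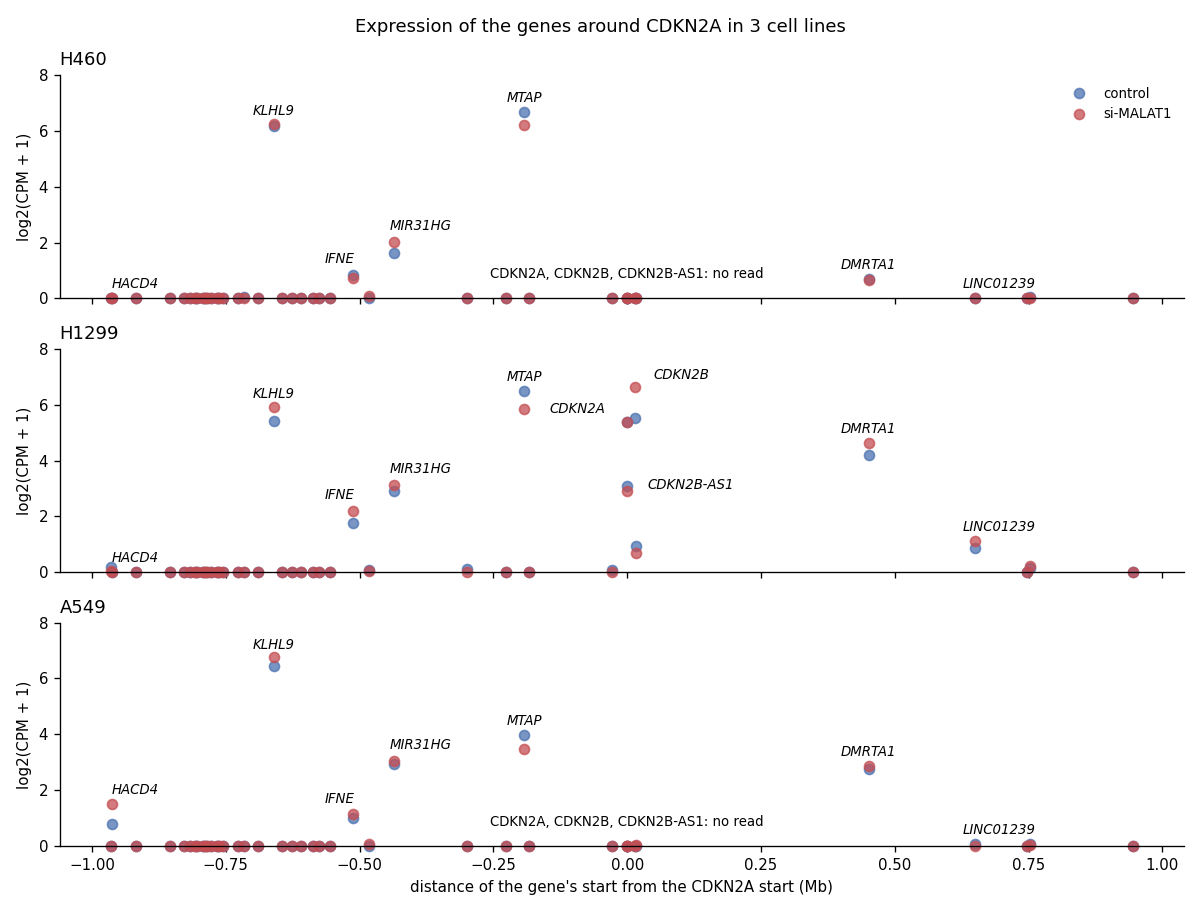
Expression of annotated genes within 1 Mb of CDKN2A, as log2(CPM + 1), against the distance of each gene's start from the CDKN2A start in Mb, in a panel per cell line with blue points for control and red for si-MALAT1. Only the H1299 panel has points above 0 for CDKN2A, CDKN2B and CDKN2B-AS1, while KLHL9 and MTAP on the left and DMRTA1 on the right are above 0 in the 3 panels.

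MTAP, 0.19 Mb from CDKN2A, did not follow its neighbours. It had 631 and 492 reads in A549 (2.99 and 2.09 TPM), but 6182 and 4273 in H460 (17.6 and 11.7 TPM) and 6290 and 3680 in H1299 (18.1 and 12.1 TPM). The A549 libraries thus lay far below the other 4, which overlapped each other. MTAP in A549 was 7.04-fold lower than in H460, a log2 difference of -2.81 ± 0.14 (SE, adjusted p = 8.78e-05), and H1299 was 2.51 ± 0.14 above A549 (adjusted p = 8.67e-05). Both calls held under each of the 10 alternatives tried. The difference between H1299 and H460 was -0.31 ± 0.13 and did not pass (adjusted p = 0.0889). H460 therefore combined 0 reads of CDKN2A with MTAP read counts in the range of H1299, whereas A549 combined 0 reads of CDKN2A with a low but measurable MTAP.

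Of 7 genes that use, make or sense methylthioadenosine and its relatives (AMD1, SRM, SMS, ODC1, PRMT5, WDR77 and MAT2A), 0 were higher and 2 lower in A549 than in H460. The pair was ODC1, the first enzyme of polyamine synthesis, at -0.78 (adjusted p = 0.0143) and spermidine synthase SRM at -0.72 (adjusted p = 0.0333). The median log2 difference of the 7 was -0.02, beside -0.01 over all genes tested, of which 35.3% were called. PRMT5, the arginine methyltransferase that methylthioadenosine inhibits, was at 44.4 and 42.6 TPM in A549, 47.9 and 42.3 in H460 and 35.5 and 36.0 in H1299. Of the 7 genes, 2 were higher and 0 lower in H1299 than in A549, where 47.2% of all genes were called. Against H460, 1 was higher and 2 lower in H1299, where 50.7% of all genes were called. These counts are not read as particular to the 7 genes.

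The differences between lines had a high background, since edgeR called 50.7% of 21771 genes between H1299 and H460, 47.2% between H1299 and A549 and 35.3% between A549 and H460. Of the 7 genes with reads in every library (all but CDKN2A, CDKN2B and CDKN2B-AS1), 5 were higher and 0 lower in H1299 than in H460. Between H1299 and A549, 5 were higher and 1 lower in H1299, and between A549 and H460, 3 were higher and 2 lower in A549. Median log2 differences of the 7 were 0.91, 1.51 and -0.52, beside 0.04, 0.06 and -0.01 over all genes. The 2 libraries of a line differ in treatment, so the spread behind these tests is that between treated and untreated cells after a common treatment effect is removed, and no second culture stands behind a line.

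The other INK4 genes were read in all lines and were highest in H1299. CDKN2C had 23.2 and 16.2 TPM in H1299 (control, then si-MALAT1), against 7.48 and 11.5 in H460 and 5.55 and 7.95 in A549. It was 1.51 ± 0.34 higher in H1299 than in A549 on the log2 scale (adjusted p = 0.0134), but not without the A549 control library (adjusted p = 0.107). H460 did not differ past the threshold from H1299 (0.78 ± 0.33, adjusted p = 0.0975) or from A549 (adjusted p = 0.142). Without the si-MALAT1 library of H460 or of H1299 the first of these passed (adjusted p = 0.0341 and 0.00372), and without either H1299 library so did the second (0.0176 and 0.0155). Over 10 alternatives the adjusted p ranged from 0.000648 to 0.107 between H1299 and A549, from 0.00372 to 0.698 between H1299 and H460, and from 0.0155 to 0.678 between A549 and H460.

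CDKN2D had 17.6 and 12.3 TPM in H1299, 3.76 and 4.55 in H460 and 2.63 and 1.37 in A549, so the order was H1299, H460, A549 with no overlap. H1299 exceeded A549 by 2.79 ± 0.34 (adjusted p = 0.0014) and H460 by 1.43 ± 0.32 (adjusted p = 0.0119). A549 was lower than H460, with a log2 difference of -1.36 ± 0.33 (adjusted p = 0.0238). The second difference was lost without the H1299 control library (adjusted p = 0.0601), and the third without the si-MALAT1 library of H460 (0.0764) or of A549 (0.157), and without the treatment term (0.0507). Over the alternatives it ranged from 0.00165 to 0.0601 and from 0.00519 to 0.157, while the difference between H1299 and A549 passed in each.

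Summed over the 4 INK4 genes, the level was 102 and 111 TPM in H1299, 11.2 and 16.1 in H460 and 8.19 and 9.32 in A549. CDKN2A made up 46.1% and 44.5% of that sum in H1299, and CDKN2B 14.1% and 29.8%. By reads the order of these 2 genes was the opposite (2938 against 3215 in the control), although the annotated exons of CDKN2A cover 4626 bases and those of CDKN2B 3984, so their order rests on the transcript lengths behind the deposited TPM. In H460 and A549 the sum was CDKN2C and CDKN2D alone, with CDKN2C at 66.5% to 85.3%. H1299 stood far above both other lines in this sum, but CDKN2A and CDKN2B, read in H1299 alone, made up much of it. The sum therefore repeats in part that these 2 genes were read in H1299 alone. CDKN2D by itself was called higher in H1299 than in both other lines, whereas CDKN2C was called against A549 but not against H460. After si-MALAT1, CDKN2C was at 24.4 CPM in H1299 and 23.4 CPM in H460.

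**Figure D3:**
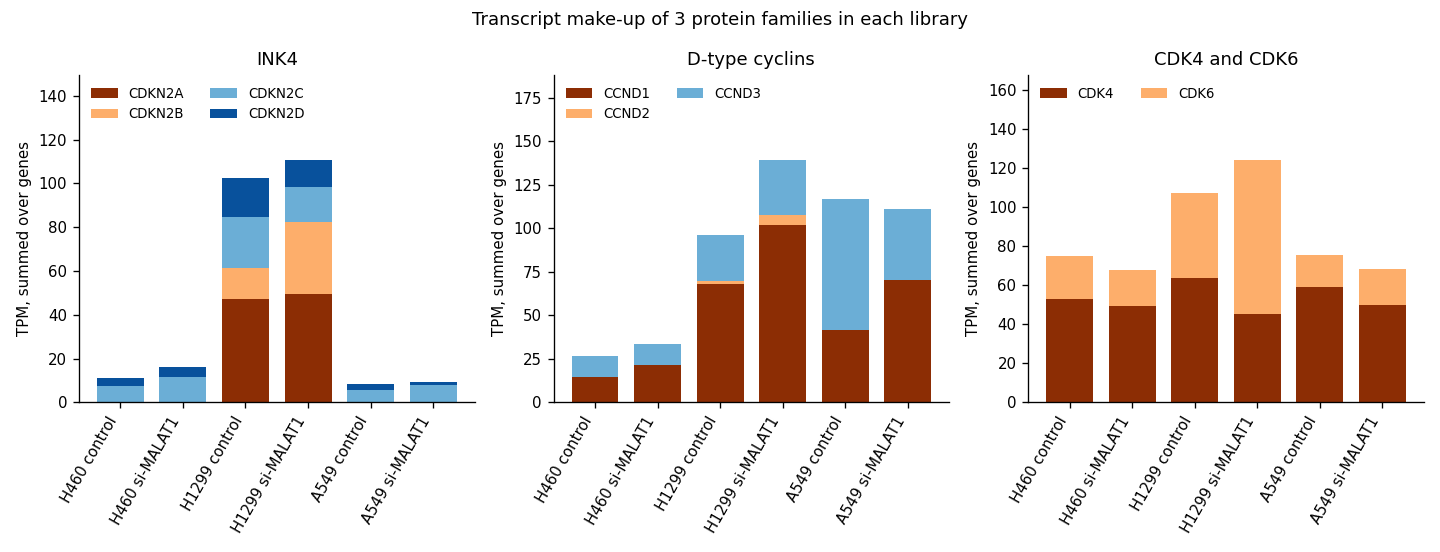
Stacked bars of TPM (vertical axis, from 0) for the INK4 genes, the D-type cyclins and CDK4 with CDK6 in each of the 6 libraries. The INK4 bars reach 102 and 111 TPM in H1299 and at most 16.1 elsewhere, the cyclin bars are lowest in H460, and CDK6 is over CDK4 only in the H1299 si-MALAT1 library.

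CDKN1B, the p27 gene, was lowest in H460, with 15.3 and 25.5 TPM. It was at 40.0 and 55.2 TPM in H1299 and 45.4 and 54.1 in A549, which overlapped. H1299 exceeded H460 by 0.89 ± 0.18 on the log2 scale (adjusted p = 0.00835) and A549 exceeded H460 by 1.03 ± 0.18 (adjusted p = 0.00741). H1299 and A549 did not differ past the threshold (-0.14 ± 0.18, adjusted p = 0.548). The first call was lost without the treatment term (adjusted p = 0.052) and the second without the A549 control library (adjusted p = 0.0799). Over 10 alternatives they ranged from 7.51e-05 to 0.052 and from 7.07e-06 to 0.0799.

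CCND1 and CCND3, the abundant D-type cyclin genes, were lowest in H460, and a different one led in H1299 and in the A549 control. CCND1, the gene of cyclin D1, had 68.2 and 102 TPM in H1299, 41.3 and 70.3 in A549 and 14.6 and 21.4 in H460. H460 lay below the others, while the H1299 control was below the A549 si-MALAT1 library. H1299 was 3.70-fold above H460, 1.89 ± 0.14 on the log2 scale (adjusted p = 0.000205), and A549 was 1.32 ± 0.14 above H460 (adjusted p = 0.00117). The difference of 0.57 ± 0.14 between H1299 and A549 (adjusted p = 0.0168) was lost without the H1299 control (0.0578), the A549 control (0.236) or the A549 si-MALAT1 library (0.112), and without the treatment term (0.23). It ranged from 3.97e-05 to 0.236 over 10 alternatives, in each of which both differences from H460 passed.

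CCND3, the gene of cyclin D3, was highest in A549, at 75.6 and 40.8 TPM, against 26.2 and 32.0 in H1299 and 11.9 and 12.2 in H460. A549 exceeded H460 by 1.96 ± 0.30 (adjusted p = 0.00441). H1299 was lower than A549 by a log2 difference of -1.05 ± 0.29 (adjusted p = 0.0275) and higher than H460 by 0.91 ± 0.29 (adjusted p = 0.0407). Without either control library the call between H1299 and A549 was lost (0.154 without H1299, 0.167 without A549). That between H1299 and H460 was lost without the H460 control (0.167), without the H1299 si-MALAT1 library (0.234) and without the filter on low counts (0.0631). Over 10 alternatives these ranged from 0.00505 to 0.167 and from 0.00846 to 0.234, and the difference between A549 and H460 passed in each.

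The ratio of CCND1 to CCND3 in TPM was 2.60 and 3.19 in H1299, 1.22 and 1.75 in H460, and 0.547 and 1.72 in A549. CCND3 transcripts were therefore the more abundant ones only in the A549 control. The third D-type gene, CCND2, had 648 and 1770 reads in H1299, 19 and 21 in H460 and 2 and 0 in A549. It was 5.57 ± 0.54 higher in H1299 than in H460 (adjusted p = 0.000518), though it gave at most 3.88% of the D-type cyclin TPM of H1299.

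CDK6 had 43.8 and 79.3 TPM in H1299, 22.1 and 18.4 in H460, and 16.5 and 18.2 in A549. Both H1299 libraries lay above the other 4. H1299 exceeded H460 by 1.21 ± 0.24 (adjusted p = 0.00727) and A549 by 1.73 ± 0.24 (adjusted p = 0.0022). A549 and H460 did not differ past the threshold (-0.52 ± 0.23, adjusted p = 0.133), but did without either H1299 library (adjusted p = 0.024 and 0.0251, range over 10 alternatives 0.024 to 0.634). Both differences of H1299 passed in each alternative. CDK4, the other kinase that D-type cyclins bind, stayed between 45.1 and 63.5 TPM in all libraries. It did not differ past the threshold between lines, with a log2 difference of -0.07 ± 0.17 between H1299 and A549. The ratio of CDK4 to CDK6 was 2.39 and 2.69 in H460, 3.57 and 2.76 in A549, and 1.45 and 0.569 in H1299.

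**Figure D4:**
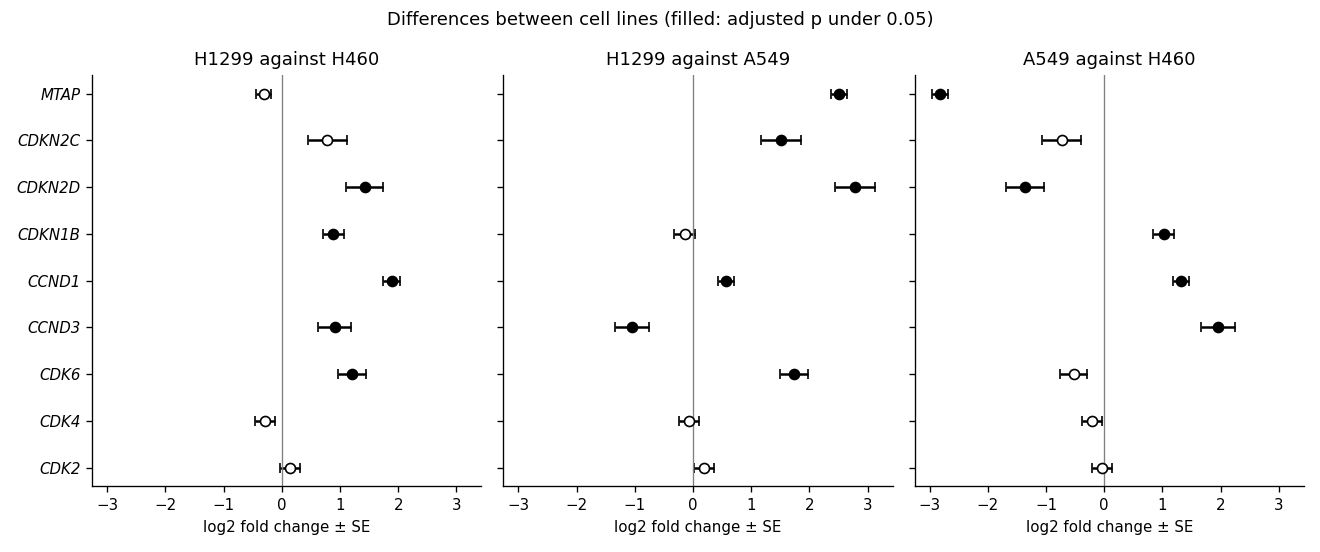
Log2 fold change with its SE (horizontal axis) between each pair of cell lines for the 7 genes read in every library and for CDK4 and CDK2, with filled points where the adjusted p of edgeR was under 0.05. MTAP lies at -2.81 for A549 against H460, whereas CDK4 and CDK2 stay near 0 in the 3 panels.

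Across 31 other genes of the pathway, 8 were higher and 4 lower in H1299 than in H460, 8 higher and 7 lower in H1299 than in A549, and 6 higher and 5 lower in A549 than in H460. Their median log2 differences were -0.05, 0.00 and -0.18, beside 0.04, 0.06 and -0.01 over all genes. Of all genes, 50.7%, 47.2% and 35.3% were called in these comparisons, so the counts are not read as particular to the pathway. After CCND2 the largest called differences were those of CDKN1C (the CIP/KIP inhibitor p57, 2.39 higher in H1299 than in H460, adjusted p = 0.00842) and CABLES1 (a CDK-binding adaptor, 2.16 higher in A549 than in H460, adjusted p = 0.000606). CDKN1C was low, with 22 to 206 reads. Cyclin E1 (CCNE1) had 11.1 and 13.3 TPM in A549, 7.73 and 5.56 in H1299 and 2.20 and 2.95 in H460. It was 1.89 ± 0.29 higher in A549 than in H460 (adjusted p = 0.00431).

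E2F5, a repressive E2F, was 1.64 ± 0.13 higher in H1299 than in H460 (adjusted p = 0.000281), and E2F7, another repressor, 1.26 ± 0.13 higher in H1299 than in A549 (adjusted p = 0.000798). CCNE2, the gene of cyclin E2, was 1.31 ± 0.35 higher in H1299 than in A549 (adjusted p = 0.0253). SKP2, the ubiquitin ligase subunit that targets p27, was at 14.3 and 8.53 TPM in A549, 18.4 and 7.64 in H1299 and 24.2 and 15.2 in H460, with a log2 difference of -1.27 ± 0.28 for A549 against H460 (adjusted p = 0.0162). RB1 was read in all libraries at 12.2 to 20.4 TPM, as were CDK2 at 27.1 to 45.7 TPM and the p21 gene CDKN1A at 25.5 to 46.1 TPM. Of these, RB1 differed between H1299 and A549 by 0.52 ± 0.13 (adjusted p = 0.0173), and CDK2 and CDKN1A did not differ past the threshold between any lines.

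After si-MALAT1, paired over the 3 lines, no gene of the 10 passed edgeR's quasi-likelihood test, in which 0.00523% of 19122 genes did (0 higher and 1 lower, MALAT1 itself). At an unadjusted p under 0.05 the number was 2863 genes. DESeq2 on the same design called 695 higher and 638 lower, CCND1, MTAP and CDKN1B among them, and edgeR called 0 and 0 without the block for cell line. Of the 10 genes 7 entered the test, since CDKN2A, CDKN2B and CDKN2B-AS1 had reads in 1 line only. The median log2 change of the 7 was 0.23, beside 0.00 over all genes.

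The level differed in the same direction in 3 of 3 lines for 3 of the 7 members with reads in every library. The share of all genes that did so was not counted, so this number is not read as particular to the members. CCND1 was higher after si-MALAT1 in each line, with 6125 reads in the A549 control against 11614 in its si-MALAT1 library, 16661 against 21769 in H1299, and 3596 against 5492 in H460. Its mean log2 change was 0.66 ± 0.13 (SD, n = 3), and edgeR gave 0.64 ± 0.11 (SE, adjusted p = 0.0994, DESeq2 adjusted p = 1.03e-07). CDKN1B was also higher in each line, by 0.51 ± 0.32 (SD, n = 3), the most in H460 with 2155 and 3715 reads (edgeR adjusted p = 0.212, DESeq2 0.0356). MTAP was lower in each line, with a mean log2 change of -0.53 ± 0.10 (SD, n = 3, edgeR adjusted p = 0.111, DESeq2 0.000141). For these 3 genes the spread between lines was smaller than the mean change, but the edgeR adjusted p did not pass. Of 7 alternatives only DESeq2 passed. The highest adjusted p, 0.999998 for each, came from edgeR without the block for cell line, which ignores the pairing.

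The other 4 members with reads in every line had log2 changes of both signs. CDK6 was higher in H1299 after si-MALAT1, at 29594 and 46593 reads and a log2 change of 0.79 (95% interval of counting error 0.76 to 0.81), and at -0.13 (-0.16 to -0.09) in H460 and 0.15 (0.10 to 0.20) in A549. CCND3 was lower in A549, at 5377 and 3255 reads and -0.87 (-0.93 to -0.81), and higher by 0.20 in H460 and 0.24 in H1299. CDKN2C was lower in H1299, at 2649 and 1609 reads and -0.59 (-0.68 to -0.50), but higher in H460 (0.82) and A549 (0.53). CDKN2D was lower in H1299 (-0.63) and in A549 (-1.07, from 132 and 69 reads), with 0.18 (-0.05 to 0.41) in H460. Their SDs over the lines, 0.47 to 0.74, exceeded their mean changes of -0.51 to 0.27.

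Within H1299 the 3 members of the CDKN2A locus differed among themselves. CDKN2B was 2.18-fold higher after si-MALAT1, a log2 change of 1.13 (95% interval of counting error 1.07 to 1.19). CDKN2A had a log2 change of 0.00 (-0.08 to 0.07), and CDKN2B-AS1 one of -0.18 (-0.37 to 0.00). CDKN2B thus stood apart from both by more than counting error, in 1 library per condition. CCND2 in H1299 went the same way as CDKN2B, with a log2 change of 1.58 (1.45 to 1.71).

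**Figure D5:**
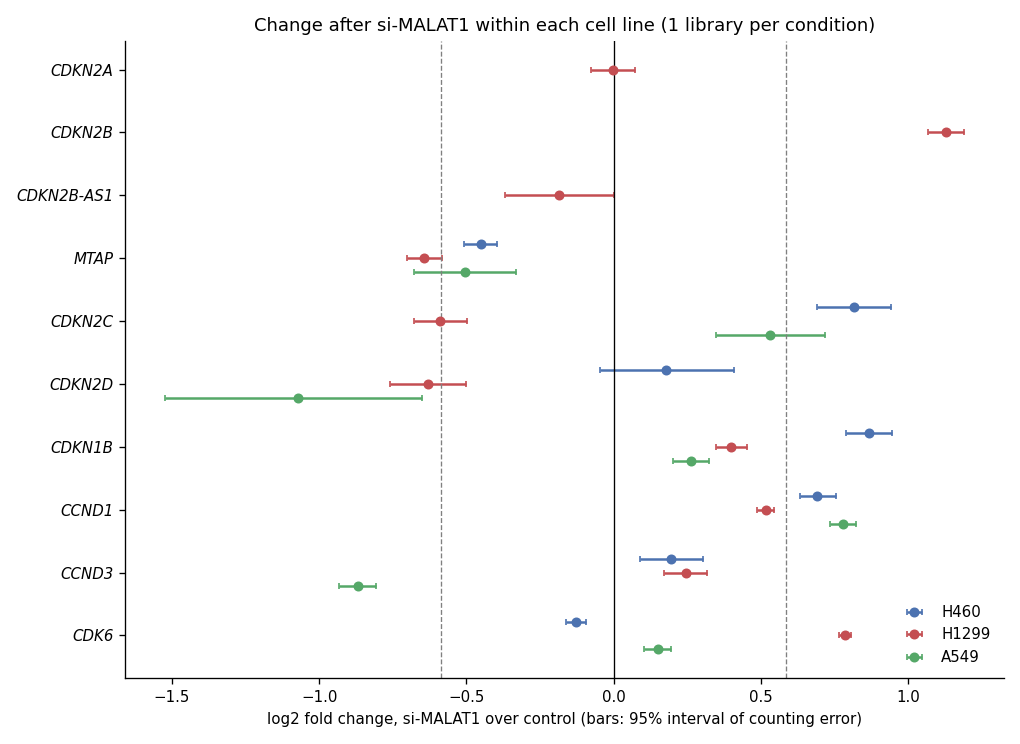
Log2 fold change of si-MALAT1 over control within each line (horizontal axis, 1 library per condition), coloured by line, with 95% intervals of counting error and dashed lines at a fold of 1.5 either way. CCND1 and CDKN1B lie right of 0 and MTAP left of 0 in the 3 lines, while CDKN2C, CDKN2D, CCND3 and CDK6 have points on both sides.

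A change of at least 1.5-fold in either direction was found in H1299 for 23.1% of 17834 genes, in A549 for 22.9% and in H460 for 19.8%. Of the 7 members counted among those genes, 3 were higher and 0 lower by that measure in H460 (CDKN2C, CDKN1B and CCND1). In H1299, 1 was higher (CDK6) and 3 were lower (MTAP, CDKN2C and CDKN2D), and in A549, 1 was higher (CCND1) and 2 were lower (CDKN2D and CCND3). On log2(TPM + 1), which has a pseudocount of 1 and understates low genes, CDKN2C (0.56) and CCND1 (0.53) in H460 and MTAP (-0.54), CDKN2C (-0.49) and CDKN2D (-0.48) in H1299 no longer reached that fold. CDKN2D in A549 went from -1.07 to -0.61 and still did. The study words its limit both as 1.5-fold and as 1.5 on the log2 scale, and by the second no member reached it in any line. Of the 31 other pathway genes 30 had reads in every library, with 3 higher and 4 lower in H1299, 4 higher and 3 lower in A549, and 3 higher and 0 lower in H460. In the list around methylthioadenosine 0 of 7 reached that fold in any line.

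Changes within lines are also given for CDK4, SKP2, CDKN1A and RB1. CDK4 had log2 changes of -0.56 in H1299, -0.23 in A549 and 0.04 in H460, and CDK6 was the more abundant of the pair in H1299 after si-MALAT1. SKP2 was lower after si-MALAT1 in each line, at -1.53 in H1299, -0.67 in A549 and -0.36 in H460. It did not pass the paired edgeR test (adjusted p = 0.173). CDKN1B was at 0.40, 0.26 and 0.87 in the same order of lines, and a link between SKP2 and CDKN1B was not tested. CDKN1A was at 0.71 in H1299, 0.00 in A549 and 0.46 in H460, and RB1 stayed between -0.02 and 0.09.

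CDKN2B had the widest range of line means among the members, 6.07 on the log2(CPM + 1) scale. The genes with the most similar profile over the 6 libraries, among those with a mean of at least 50 reads, were ADAMTS20, LINC01518, TRIM58, LOC102724858 and ARMCX1, with Pearson's r from 0.999965 to 0.999997. Each had 0 reads in H460 and A549, like CDKN2B, and more reads after si-MALAT1 than in the control of H1299, such as 1616 and 2700 for ARMCX1. With 4 of 6 libraries at 0 the correlation is set by H1299 alone. Among members, CDKN2A (0.994), CDKN2B-AS1 (0.989) and CDK6 (0.939) were the most similar to CDKN2B, and CCND3 (-0.03) the least.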

How the data were processed

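The 6 RNA-seq libraries were those of H460, H1299 and A549, each with and without si-MALAT1. Per the study's methods and the submitters' processing notes, the authors trimmed reads (Trimmomatic), aligned them to GRCh38 with HISAT2 2.1.0 and quantified genes with StringTie. The StringTie version is 1.3.4b in the notes and a different one in the paper. The notes also list a second genome build, whereas the paper and the deposited annotation use GRCh38. The deposited table gives raw counts per gene, FPKM and TPM, and the authors' TPM values were used for levels between genes, FPKM not at all. Columns of other samples, 18 in number, were not used. No authors' fold change was used.

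Counts were tested with edgeR 4.0.16 (R 4.3.3): TMM scaling, filterByExpr, quasi-likelihood test, Benjamini-Hochberg adjusted p under 0.05. CPM values are scaled by the TMM library size. SE is the log2 fold change divided by the root of F. Treatment was tested with cell line as block, since the titles give each line 1 control and 1 si-MALAT1 library (deviations from the group means correlated at 0.943 to 0.952 over 19122 genes). Line comparisons had treatment as a term and a filter by line, with 2 residual degrees of freedom. Within a line, log2(count / DESeq2 size factor + 1) was compared over 17834 genes with a read in every library, with exact 95% Clopper-Pearson intervals for counting error only and no test. The floor for 0 was 3 reads per library. Both fits were also run on simulated counts whose mean levels, apart from the changed genes, were the same in every line. Those counts lack the line differences of the real data, so that run does not show how the tests behave here. P-values rest on the spread left after the line and treatment terms, with 1 library per line and condition, and not on replicate cultures.

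Members, lists and the 5 Mb window were chosen with earlier results of these data known. The named genes are the members, MALAT1, window genes with over 10 reads in some library, the 8 pathway genes with the largest called line differences plus CDK4, CDK2, CDKN1A and RB1, the 7 methylthioadenosine genes and the 5 genes most like CDKN2B. Alternatives were RLE size factors or TMM scaling, DESeq2 1.42.0, no filter, no block or treatment term, leaving out each library or line, a pseudocount of 10, TPM, and other floors and windows. Promoters are from RefSeq (GRCh38.p14), in which 9 of the 10 members matched. Figures were drawn with matplotlib 3.10.9.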

Additional observations from a re-analysis of the deposited data

Results flagged for a closer look

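Lines moved in opposite directions after si-MALAT1 for 3 members, each with counting intervals clear of 0 on both sides, and the difference was not tested, since there is 1 library per condition and line. For CDKN2C the log2 fold change in H460 exceeded that in H1299 by 1.40. For CCND3 the change in H1299 exceeded that in A549 by 1.11. For CDK6 the change in H1299 exceeded that in H460 by 0.91.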

How the results depend on the processing

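The paired edgeR test of si-MALAT1 gave 0 genes higher and 1 lower. DESeq2 gave 695 and 638, no filter gave 0 lower, and without the replicate block for cell line the counts were 0 and 0. Leaving out 1 line gave 0 to 51 higher and 0 to 112 lower, the highest values without H460. On the log2 scale, leaving out 1 line gave -0.068 (without H460) to 0.67 for CDKN2C and -0.35 to 0.21 (without A549) for CCND3. CDKN1B between H1299 and A549 ranged from -0.32 to 0.031 (without the A549 control) over the fits without 1 library. None of these passed the threshold. Leaving out 1 library gave 2998 to 5601 higher and 2911 to 5154 lower genes between H1299 and A549, and 1840 to 3999 and 1896 to 4264 between A549 and H460, the lowest counts without an A549 library. Within lines, on log2(TPM + 1) the genes past 1.5-fold were 236 higher and 803 lower in H460 (22.7% higher, against 48.1% of the calls on scaled counts), 1030 and 778 in H1299 and 670 and 896 in A549. Without the filter on zeros they were 4673 and 4426, 5507 and 5256, and 5021 and 4458. In a window of 2 Mb, which holds fewer genes, 38 genes of H1299, 46 of H460 and 47 of A549 were at or under the floor. The cause of the other moves was not tested. Few reads limit the values of CDKN2D in A549, CDKN1C, DMRTA1 in H460, and CCND2 in H460 and A549.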
